A study of Mus musculus with 2 samples.

Results

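Coding transcripts with a very long coding sequence were taken from a table of ribosome footprints of the neonatal mouse brain. The members were the protein-coding rows with an annotated coding sequence of at least 6000 nucleotides, chosen by length and not by any measured value. They numbered 825 transcripts of 439 genes, out of 49617 protein-coding transcripts and 109463 transcripts in all. The reference class was the 14018 protein-coding transcripts, from 8428 genes, with a coding sequence of 1000 to 2000 nucleotides. Both libraries came from whole brains of control mice at postnatal day 5 that had lost 1 copy of Smn and carried the human SMN2 transgene (genotype Smn+/-; SMN2tg/0), on the FVB strain. They formed a single group of 2 biological replicates, so no animal without the Smn disruption or the transgene was compared, and the values describe this genotype alone.

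Ribosomes protect a short stretch of mRNA from nuclease while they translate it, and sequencing these stretches counts ribosomes on each message. Here the stretches came from pooled polysome fractions, in which several ribosomes share 1 message. A longer coding sequence has room for more ribosomes, so the number on a message and the number per nucleotide are different quantities. The proteins of very long coding sequences in the brain include the spectrin and ankyrin skeleton under the membrane, microtubule linkers, the motor of retrograde transport, active zone scaffolds, voltage-gated channels, giant ubiquitin ligases and chromatin enzymes. Others belong to muscle sarcomeres, motile cilia or mucus and are little used in brain.

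Replicate 1 held 1866831 footprints and replicate 2 held 5261878, a ratio of 2.82. Summed over the 8 neuronal marker genes, the level was 7272 and 5621 CPM, the usual unit of counts scaled to a common library total, and over the 6 astrocyte markers 3900 and 3334 CPM. Single markers did not all follow the sums. Among neuronal markers Rbfox3 and Map2 were higher in replicate 2 and the others lower. Apoe, with 2199 and 1618 CPM, made up 50.8% of the astrocyte sum. Aldoc and Aqp4 were also lower in replicate 2, Slc1a2 and Gfap higher, and Slc1a3 alike. Oligodendrocyte markers summed to 809 and 1070 CPM, higher in replicate 2, though Olig1 was lower, at 171 and 104. Microglial markers summed to 203 and 207. For 9 skeletal muscle markers the sum was 93.2 and 66.1 CPM, of which Acta1 made up 77.4%, and Xirp2 had no count. Of 5 liver markers Alb had no count, and Ttr, which the choroid plexus also makes, held 99.6% of the sum. Matched RNA levels were not used here, so a footprint level is not a translational efficiency. In whole brain, fewer cells of a type and less RNA per cell cannot be told apart.

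The very long transcripts carried more footprints each than the reference transcripts, but fewer per nucleotide. The median member had 23 footprints in replicate 1 and 80 in replicate 2, against 9 and 32 in the reference class. These medians differed by 2.56-fold and 2.50-fold, whereas the median coding sequence, 7584 against 1404 nucleotides, differed by 5.40-fold. Per nucleotide of coding sequence, the median member therefore had 0.00278 and 0.00994 footprints, against 0.00629 and 0.0224 in the reference class.

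Expressed as CPM of the whole library per kilobase of coding sequence, called the level from here on, the median member stood at 1.49 in replicate 1 and 1.89 in replicate 2. The median reference transcript stood at 3.37 and 4.26. The reference median was 2.26-fold higher in each replicate, and the log2 difference of the medians, very long minus reference, was -1.18 ± 0.000653 (SD, n = 2). The gap was much wider than the difference between the libraries, but 2 replicates cannot pass a threshold of 0.05, since an exact paired permutation test reaches 0.5 at best. Counting per nucleotide of the whole transcript, with its untranslated regions, brought the difference to -0.51. Dividing summed counts by summed coding length took it to -1.97. Coding sequence made up 90.9% of the median member and 60.8% of the median reference transcript, and footprints could not be assigned to one or the other region.

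**Figure D1:**
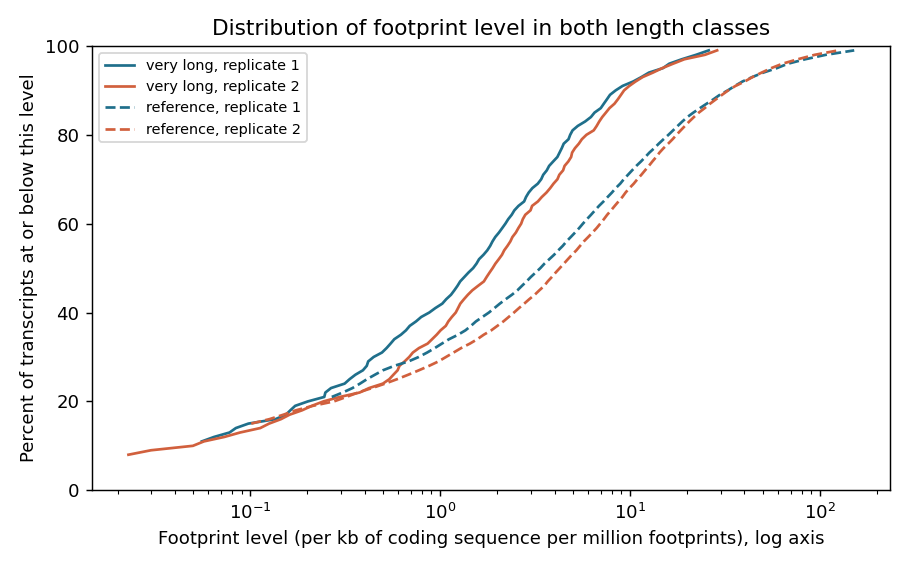
Percent of transcripts at or below each footprint level (CPM per kilobase of coding sequence, log axis), for very long (solid) and reference (dashed) transcripts in replicates 1 and 2; levels under 0.02 are not drawn. The very long curves reach 50% at 1.49 and 1.89, left of the reference curves at 3.37 and 4.26, while the lower tails of both classes lie close together.

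Not every member had a low level. In both replicates 224 members of 146 genes, or 27.2%, lay above the reference median. The upper quartile of the members was 4.14 in replicate 1 and 4.89 in replicate 2, and that of the reference class 12.02 and 13.71. The highest member reached 247 and 170, and the highest reference transcript 1358 and 722. The difference between the classes was thus also present in their upper ranges.

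The median level was lower in each longer class from 1000 to 2000 nucleotides upward. It was 3.82 ± 0.633 (mean of the replicate medians, SD, n = 2) in the reference class and 2.24 ± 0.291 at 6000 to 8000 nucleotides, where 482 members lay. It was 1.65 ± 0.274 for the 160 members of 8000 to 10000 nucleotides and 0.763 ± 0.135 for the 134 of 10000 to 15000. The 49 members of 15000 nucleotides or more, from 23 genes, had 0.252 ± 0.0439. Classes next to each other in this order overlapped widely in their quartiles. Within the members, Spearman's rho between coding length and level was -0.241 in replicate 1 and -0.240 in replicate 2 over 825 transcripts, and -0.190 in both over the 776 under 15000 nucleotides. Isoforms of a gene share sequence and both axes share the length, so these values are descriptions. Transcripts of 500 to 1000 nucleotides broke the order, with medians of 2.14 and 2.99.

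**Figure D2:**
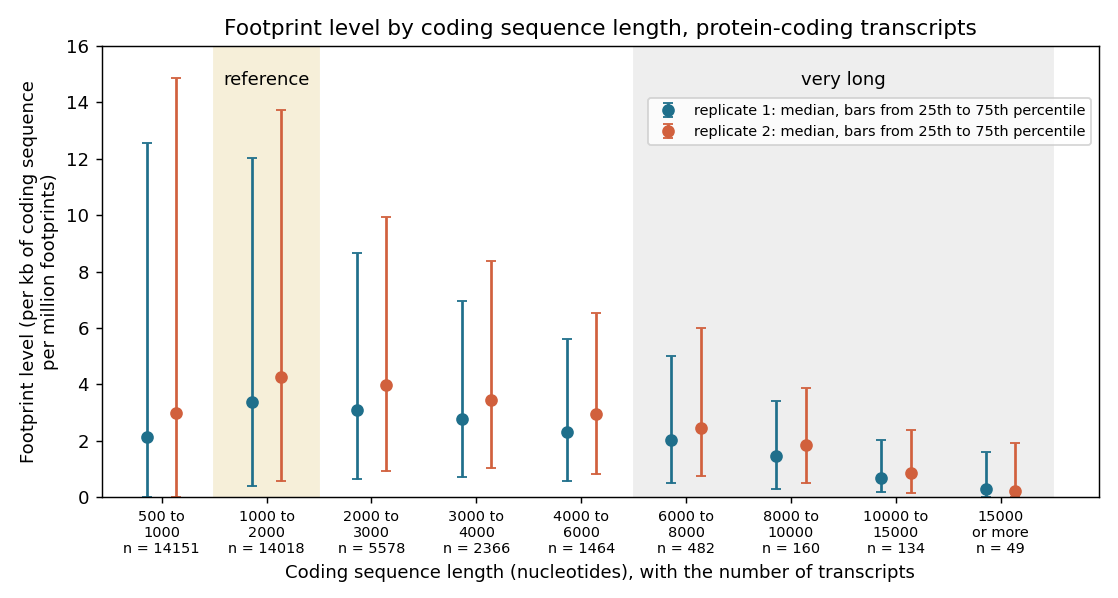
Median footprint level (CPM per kilobase of coding sequence) of protein-coding transcripts by coding sequence length, for replicates 1 and 2; bars run from the 25th to the 75th percentile of transcripts. Medians descend from 3.37 and 4.26 in the reference class to 0.283 and 0.221 at 15000 nucleotides or more, and neighbouring classes overlap.

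At the limit of the rule, the 5 shortest members had 6003 to 6021 nucleotides and levels from 0.603 (Myh14-001) to 13.7 (Scn2a1-001). The 5 transcripts just below it, of 5994 to 5997 nucleotides, had levels from 0.229 (Otof-001) to 3.11 (Myo18a-003). The median 5′ untranslated region was 135 nucleotides in members and 154 in the reference class, and the median 3′ untranslated region 716 and 688.

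A smaller share of members than of reference transcripts went undetected. A longer coding sequence gathers more footprints at the same level, so these shares do not compare the classes at like level. A count of 0 was found for 83 members (10.1%) in replicate 1 and 48 (5.82%) in replicate 2, against 21.0% and 14.8% of the reference class. Both replicates were at 0 for 42 members, and 22 genes had no footprint on any very long transcript. For a coding sequence of 6000 nucleotides, a count of 0 allows a level of up to 0.268 in replicate 1 and 0.0950 in replicate 2, taking 3 counts as the floor. Both libraries without a footprint were found for the mucin genes Muc4, Muc5ac, Muc5b and Muc6, which encode mucus glycoproteins of epithelia. Hrnr and Flg2, genes of the cornified skin layer, and Pkhd1, whose loss causes cystic kidneys, were at 0 as well.

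All members together took 45082 footprints in replicate 1 and 139458 in replicate 2. This was 3.17% (Clopper-Pearson 95% interval 3.14 to 3.19) and 3.55% (3.53 to 3.56) of the footprints on protein-coding transcripts, or 3.36% ± 0.269 (SD, n = 2). They held 10.8% of the annotated coding nucleotides. The share was higher in replicate 2 by more than counting error, which is all that the intervals cover. The reference class held 28.4% of the coding nucleotides and took 34.6% ± 0.297 of the coding footprints.

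Few genes held much of this total. The 50 leading genes took 52.4% of the members' footprints in replicate 1 and 50.2% in replicate 2, and the 10 leading genes 26.2% and 23.3%. Map1b alone took 7.58% and 4.73%. By mean count, Map1b was followed by Sptan1 with 1778 and 6105 footprints on 6 very long transcripts and by Sptbn1 with 1387 and 4614 on 4. Fasn had 970 and 2307, Map1a 850 and 2394, and Macf1, a linker of microtubules and actin, 594 and 2480 on 9 transcripts. Dync1h1, Ptprz1, Apc and Lrp1 completed the first 10.

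The highest level of any member belonged to Map1b-201 (ENSMUSG00000052727), whose protein bundles microtubules in growing axons. With 3416 and 6602 footprints, its levels were 247 in replicate 1 and 170 in replicate 2, or 209 ± 55.0 (SD, n = 2). Replicate 1 was the higher, and the lower of its values was still above every other member. Fasn-001 (ENSMUSG00000025153), the fatty acid synthase, stood at 69.1 and 58.3. Ptprz1-001 (ENSMUSG00000068748), a receptor phosphatase of glia and their precursors that is shed as the proteoglycan phosphacan, stood at 55.9 and 60.3. Fasn-001 was the higher in replicate 1 and Ptprz1-001 in replicate 2, so their order is not settled. Over all its protein-coding transcripts, shorter ones included, the Ptprz1 gene reached 124 and 139.

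The next levels lay close to each other. Sptbn1-001 (ENSMUSG00000020315), the widespread beta spectrin, had 30.4 and 34.1, and Dync1h1-001 (ENSMUSG00000018707), the heavy chain of cytoplasmic dynein, 35.6 and 28.6. Their replicate ranges overlapped, so they have no settled order. Map1a-002 (ENSMUSG00000027254), the microtubule protein of mature neurons, stood at 26.7 and 26.8. Usp9x-001, a deubiquitinase, stood at 24.1 and 28.8, and Akap6-201, an anchor for protein kinase A, at 26.0 and 23.9. Prrc2b-003, the last of the first 10, had 25.3 and 24.2.

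**Figure D3:**
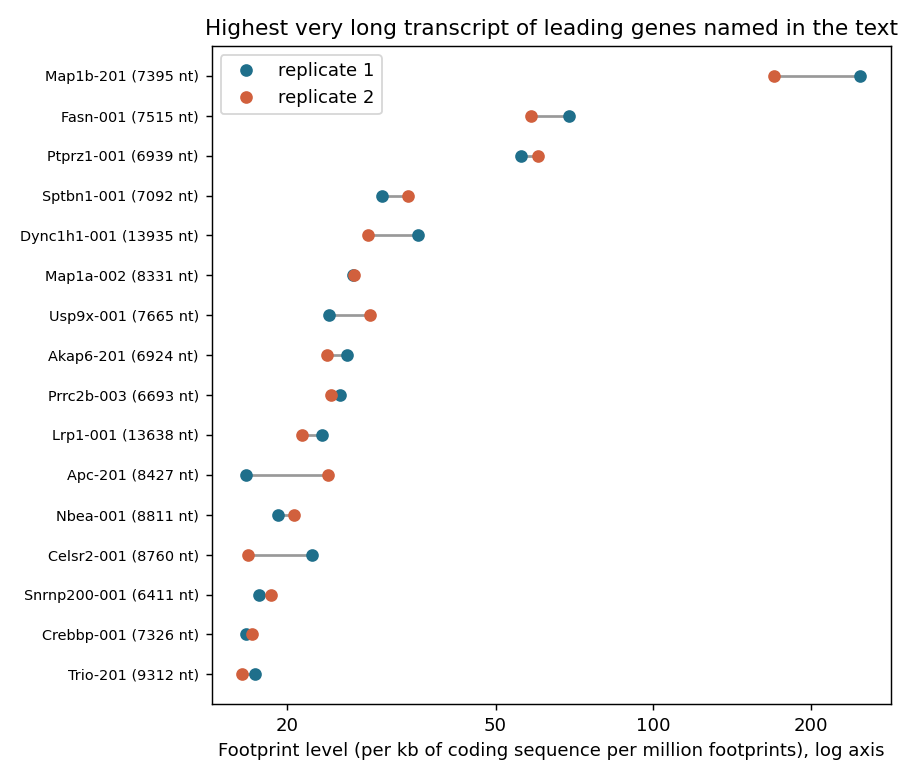
Footprint level (CPM per kilobase of coding sequence, log axis) in replicates 1 and 2 for the highest very long transcript of leading genes named in the text, with the coding length in nucleotides; a grey line joins the replicates. Map1b-201 stands apart at 247 and 170, Fasn-001 and Ptprz1-001 follow between 55.9 and 69.1, and the remaining transcripts shown lie at 35.6 or below.

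Among coding sequences of 10000 nucleotides or more, 24 of 183 transcripts, from 17 of 101 genes, were above the reference median in both replicates. Dync1h1-001 led them, followed by Lrp1-001 (13638 nucleotides), a large endocytic receptor, at 23.3 and 21.3. Reln-001, the transcript of the secreted guidance protein reelin, had 7.74 and 13.7. Of the transcripts of 15000 nucleotides or more, 2 were above it, Ubr4-001 at 3.96 and 4.32 and Ubr4-201 at 3.88 and 4.36, both of a giant ubiquitin ligase.

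The longest coding sequences had almost no footprints. Titin, the molecular spring of the sarcomere, had the 5 longest: Ttn-019 with 105642 nucleotides, Ttn-201 and Ttn-202 with 100404 each, Ttn-001 with 80661 and Ttn-002 with 24817. Ttn-019 had 2 footprints in each replicate. Over its 7 members Ttn had 4 and 9 footprints. The longest transcripts outside muscle genes were those of Dst and Macf1. Dst-201, a cytoskeletal linker with 22221 coding nucleotides, had 39 and 157 footprints at levels of 0.940 and 1.34. Macf1-202, of 22068 nucleotides, had 77 and 314 footprints at 1.87 and 2.70.

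Several transcripts of a gene can match the same fragment, and how the authors assigned such fragments is not given in the sources used here. Only 226 of the 439 genes had a single very long transcript, 201 had 2 to 5 and 12 had more, with 17 for Cacna1c. The 6 very long transcripts of Sptan1, the alpha spectrin, had 278 to 310 footprints each in replicate 1 and 962 to 1077 in replicate 2. They thus had nearly equal counts. Whether a shared fragment was split among transcripts or counted for each of them is not known. If it was counted for each, a summed gene level rises with the number of annotated transcripts. Each had a level between 22.8 and 24.5, while the counts of all coding transcripts of the gene, per kilobase of its longest coding sequence, gave 144 ± 19.1 (SD, n = 2). Sptbn1 likewise reached 114 ± 13.4. For Plec, a linker of intermediate filaments with 13 members, transcript levels of 0.419 to 0.635 became a gene level of 7.33 ± 1.22. For Cacna1c, an L-type calcium channel, 0.335 to 1.05 became 9.99 ± 3.45.

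Summed per gene in this way, the median of the 439 genes was 2.996 in replicate 1 and 3.99 in replicate 2. The 7466 genes whose longest coding sequence lay in the reference range had 6.41 and 7.43, so the order of the classes was kept, at a log2 difference of -0.998. It was -1.27 for genes with 1 protein-coding transcript, of which 125 were members.

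Within genes the median did not follow this order, in a comparison chosen after the data were seen. Of the 439 genes, 77 also had a protein-coding transcript in the reference range, and for 59 both kinds had footprints in both replicates. Over these 59, the median log2 ratio of the level on very long to that on reference-length transcripts of the same gene was 0.27 in replicate 1 and 0.22 in replicate 2. The ratio was above 0 in both replicates for 29 genes, below 0 in both for 17 and mixed for 13. Birc6, an inhibitor of apoptosis with ligase activity, stood highest, with levels of 1.36 and 2.49 on very long against 0.204 and 0.824 on shorter transcripts. Stard9, a kinesin, was lowest, with levels of 0.0862 and 0.167 against 0.594 and 0.364. Its ratio rests on few counts, since all transcripts of Stard9 together had 7 and 29 footprints. Dmd, the dystrophin gene, came next, at 1.26 and 1.997 against 4.97 and 6.78. Both transcripts of a pair can share fragments, and the part of this sharing in the ratios was not tested.

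Gene levels are used for the counts and medians of the functional lists that follow, with the limit on shared fragments given above. The common point of comparison is 3.67 (the mean over the replicates of each gene, then the median of the 439 genes). A value given for a named transcript or a highest transcript is the level of that transcript alone. It can lie well below the gene level and is not to be set against 3.67. A few genes are in more than 1 list. Among spectrins and ankyrins, 6 of 7 genes lay above it and the list median was 32.2. Sptan1 was the highest, and Ank3, the organiser of the axon initial segment, had 29.0 and 35.3. Of the cytoskeletal linkers 6 of 11 lay above it, with a median of 5.78. Macf1 reached 15.78 and 23.15, and Ahnak, a large scaffold of non-neuronal cells, 1.36 and 1.11.

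The dynein heavy chains split sharply. Dync1h1 had a gene level of 36.6 and 29.3, whereas Dync2h1, which drives retrograde transport inside cilia, had 1.49 and 2.10. The other 13 genes, all axonemal dyneins that beat motile cilia, lay between 0.0283 and 0.545 as means of the replicates. The median of the 15 genes was 0.184, the lowest of the 19 lists. Dnah17-202 had 0 and 2 footprints, which is under the floor.

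None of the 8 muscle genes was above the common median, and their median was 0.272. Speg, a kinase of muscle, was the highest, at 3.39 and 3.53. Xirp2 was at 0. Of the 6 calcium release channels 1 was above it: Itpr1, the inositol trisphosphate receptor of neurons, at 7.60 and 8.20. Ryr2, the ryanodine receptor found in heart and brain, had a highest transcript at 1.29 and 1.28, and Ryr1, the skeletal muscle form, one at 0.248 and 0.201.

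Genes of excitability and synapses stood higher. Of 11 voltage-gated channel genes with a member, 9 were above the common median, and the list median was 9.99. Scn2a1, the sodium channel of early axons, led with a mean gene level of 44.0 ± 8.30 (SD, n = 2). Its highest transcript, Scn2a1-201, had 140 and 486 footprints. Of 5 synaptic scaffold genes 4 were above the common median, with a list median of 9.69. Nbea, a regulator of receptor trafficking, had 19.3 and 20.6. Shank1-001, a scaffold of the postsynaptic density, had 10.8 and 8.30, and the Shank1 gene a mean level of 25.5. Bsn-001, encoding the active zone protein bassoon, had 10.4 and 7.005, and Pclo, encoding piccolo, a gene level of 6.45 and 10.05. Bassoon was thus higher in replicate 1 and piccolo in replicate 2.

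Most giant ubiquitin enzymes had levels above the common median, 11 of 13, with a list median of 10.3. Usp9x had a gene level of 36.7 ± 4.61 (SD, n = 2). Huwe1, a ligase for short-lived regulators, had a gene level of 9.83 and 14.3. Rnf213, a ligase studied mostly in blood vessels, was lowest, at 0.104 and 0.221 on its highest transcript. Chromatin regulators, the list with the most genes, had 20 of 24 above the common median, with a list median of 6.75. Crebbp-001, a histone acetyltransferase, had 16.7 and 17.2, and Nsd1-201, a histone methyltransferase, 15.3 and 16.2. Zfhx4-001, of a transcription factor, had 0.548 and 0.637.

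All 5 genes of translation and RNA processing were above the common median, at a median of 17.8. Snrnp200-001, a helicase of the spliceosome, had 17.7 and 18.6, and Prpf8-001, its central scaffold, 11.3 and 12.3. By gene Prpf8 was the higher, at a mean of 27.7 against 18.2. Smg1-001, a kinase of nonsense-mediated decay, had 1.76 and 2.87, and the Smg1 gene a mean level of 5.08. Of the 6 kinases related to phosphoinositide kinases 3, Mtor, Smg1 and Trrap, were above it. Mtor-001, the growth kinase, had 9.17 and 8.87, and Atr-001, a DNA damage kinase, 0.541 and 1.03. Of 12 genes that regulate small GTPases or anchor kinases 7 were above it. Dock3 and Trio, both exchange factors in axon growth, had the highest mean gene levels, 18.0 and 16.9. By single transcript Trio-201 was the higher, at 17.4 and 16.4 against 12.7 and 13.3 for Dock3-001.

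Surface and matrix genes formed 3 lists with wide ranges. Of 14 giant cadherins and teneurins 10 were above the common median, with a median of 8.27. Celsr2-001, a planar polarity cadherin, had 22.3 and 16.8, Tenm2-002, a synaptic adhesion protein, 7.55 and 7.54, and Cdh23-202, of the hair cell tip link, 0.215 and 0.114. By gene, Celsr2 and Tenm2 had means of 23.4 and 21.9. Of 4 lipoprotein receptor genes 3 were above it, Lrp1 and Sorl1 among them, whereas Lrp2-001, the kidney receptor megalin, had 0 and 6 footprints. Of 23 matrix and related genes 7 were above it, at a median of 1.55. Usp24, a deubiquitinase and no matrix gene, was in the list and among the 7, at 10.2 and 12.02. Agrn-006, encoding agrin of the neuromuscular junction, had 15.1 and 14.8, and the Agrn gene a mean level of 49.3. Sspo, the Reissner fibre protein, had 1 and 2 footprints on Sspo-001. Vcan, the matrix proteoglycan versican, had a gene level of 16.7 and 27.0.

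Of 9 notch and sushi-domain receptors 4 were above the common median, with a list median of 2.74, among them Notch3-001, the receptor of mural cells, at 9.70 and 6.77. Stab2, a scavenger receptor of liver sinusoids, had 0 and 3 footprints. Of 11 vesicle and lysosome genes, Dync1h1 among them, 4 were above it, with a list median of 2.67 and with Wdfy3, an autophagy adaptor, at 5.65 and 5.90 on its highest transcript. Of 10 genes of mitosis and neural progenitors 2, Apc and Cit, were above it, and the list median was 1.80. Apc, the brake on Wnt signalling, had a gene level of 40.8 and 56.7, and Mki67-201, a mark of dividing cells, 2.75 and 3.89. Of 8 lipid genes 4 were above it, and the list median was 6.75, with Abca2-001, a lipid transporter of myelinating cells, at 14.3 and 12.4, and Apob-004, of liver lipoproteins, at 0 and 1 footprint.

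**Figure D4:**
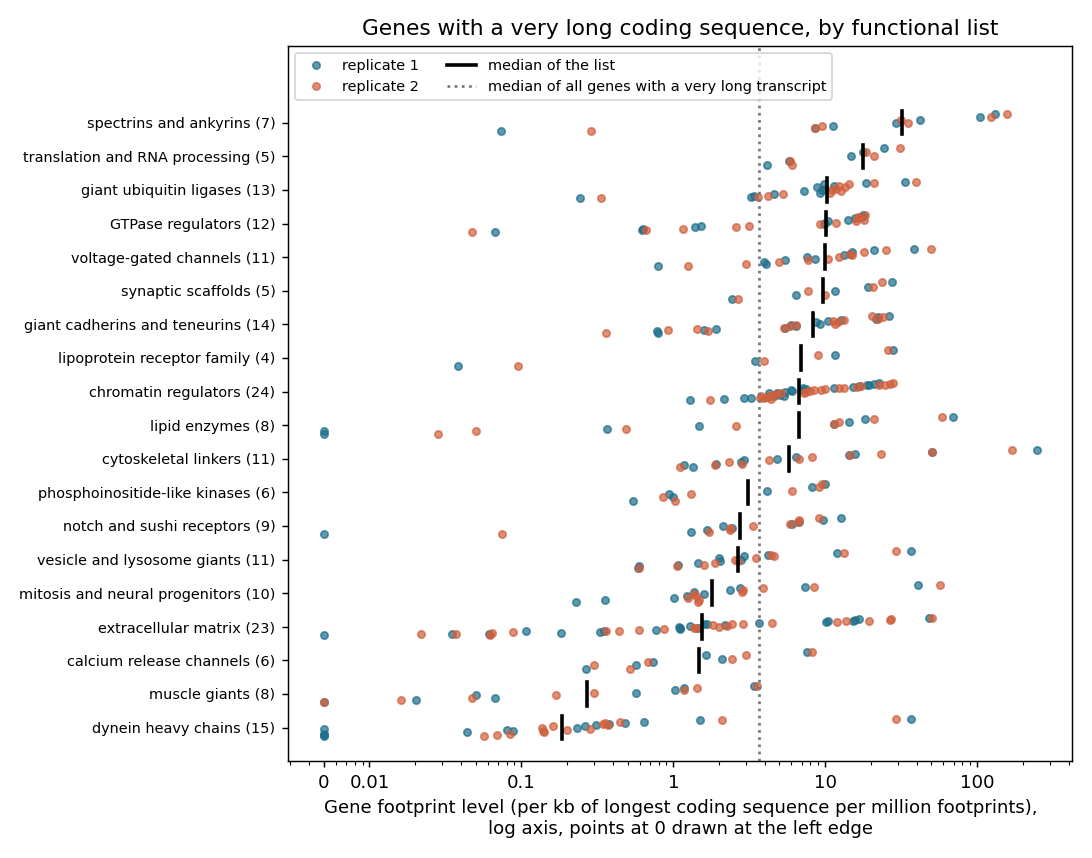
Gene footprint level (counts of all protein-coding transcripts as CPM per kilobase of the longest coding sequence, log axis) in replicates 1 and 2 for the genes of 19 functional lists, with the number of genes in brackets; points at 0 are drawn at the left edge, black bars are list medians and the dotted line is the median of all 439 genes, 3.67. Spectrins and ankyrins lie highest, at a median of 32.2, and muscle genes and dynein heavy chains lowest, at 0.272 and 0.184.

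The replicates were compared transcript by transcript to see how far the members' values depend on the library. Each pair of counts was set against the ratio of library sizes scaled by TMM (trimmed mean of M values) in an exact binomial test, two-sided. Benjamini-Hochberg adjustment ran over the 43655 transcripts whose mean count reached 10. The test covers counting noise between these 2 libraries and not the spread between animals. Of the 825 members 647 passed the filter, and 39 of them (6.03%) differed at an adjusted p under 0.05, against 6.15% of all transcripts tested. The members' share was therefore near the background, but not at like counts. Their median mean count was 84.5, against 37 over all transcripts tested. In each band of like count a smaller share of members than of reference transcripts was called. At mean counts of 160 to 320 the shares were 13.5% and 19.6%, and above 320 they were 32.7% and 63.4%. These differences were not tested. Of the 39, 14 were higher in replicate 2 (2.16% of members, background 0.662%) and 25 lower (3.86%, background 5.48%).

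Which direction held more calls depended on the scaling and on summing per gene. With library totals in place of TMM, which moved the log2 ratios of well-counted transcripts up by 0.19, 57 members were called, 47 higher (7.26%, background 1.72%) and 10 lower (1.55%, background 2.63%), against 4.35% of all transcripts in either direction. Summed per gene with TMM, 82 of 361 tested genes were called (22.7%, background 17.4%), 57 higher (15.79%, background 5.95%) and 25 lower (6.93%, background 11.5%). In each of these settings a larger share of members than of all features was higher in replicate 2. Differences between the shares were not tested. Under edgeR's exact test, given a dispersion common to all transcripts, 0.0183% of all transcripts were called and no member was. In edgeR's test 17 of 647 members had an unadjusted p under 0.05, and 1586 of all 43655 transcripts did. In the exact binomial test 119 of 647 members did, and 6624 of all 43655 transcripts.

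The median log2 ratio of the members, replicate 2 over replicate 1, was 0.11 with TMM, against -0.01 in the reference class and 0.01 over all transcripts tested. With library totals, which shift all of these alike, the values were 0.29, 0.17 and 0.19. Of the members, 387 of 647 (59.8%) were above 0 with TMM, and 49.1% of the reference class. The median ratio was lowest at the highest counts in both classes. At mean counts of 10 to 20 the medians were 0.28 for 68 members and 0.17 for reference transcripts, at 160 to 320 they were 0.05 and -0.16, and above 320 they were -0.10 for 52 members and -0.40. At like counts the members had lower levels, for example a median of 18.8 against 102 above 320 footprints. In the bands of like level from 1 to 16 the order was the opposite, but the count filter bears on the lower bands. Between levels of 1 and 2 the median count was 11.5 for reference transcripts, close to the limit of 10, and 43 for members. A mean of raw counts leans toward replicate 2, the deeper library, so near the limit the filter favours higher ratios. How much of the opposite order comes from the filter was not tested. Between levels of 2 and 4 the median was 0.09 for 142 members and 0.21 for reference transcripts, with median counts of 85 and 16.5. Between 4 and 8 the ratios were 0.02 and 0.10. From a level of 16 upward they were -0.08 for 36 members and -0.18 for the reference class. Count and level move together with length in these data, and their part in the ratio was not tested.

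**Figure D5:**
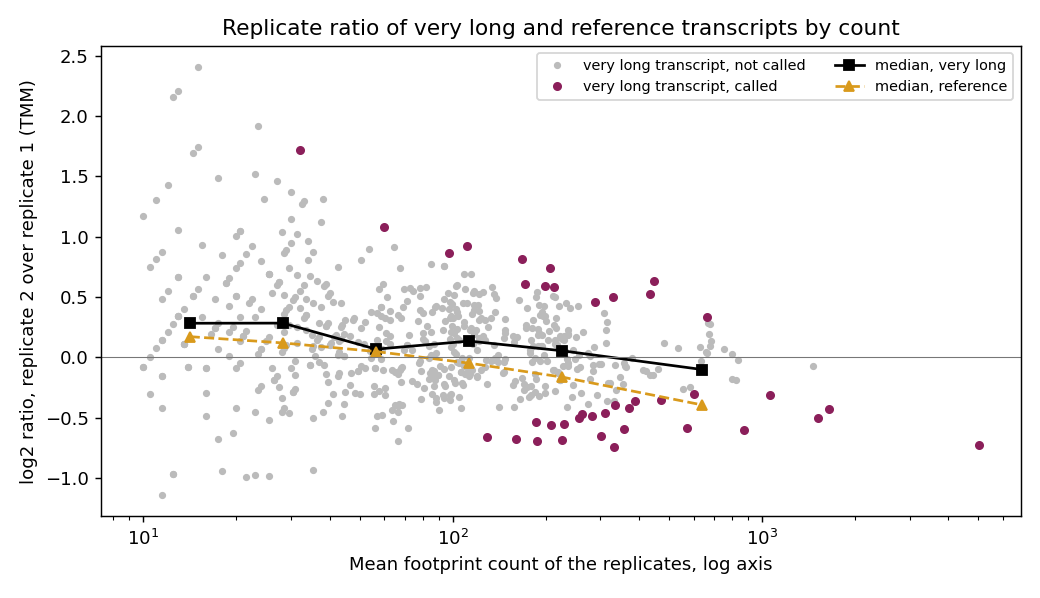
log2 ratio of replicate 2 over replicate 1 with TMM scaling against the mean footprint count (log axis) for the 647 very long transcripts tested; called transcripts (adjusted p under 0.05, exact binomial test) are coloured, and lines join the medians of very long and reference transcripts in 6 bands of count. The median of the members lies above that of the reference class in each band, from 0.28 against 0.17 at the lowest counts to -0.10 against -0.40 at the highest.

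Among called members with a mean count of at least 100, the highest ratios were those of Birc6-007, Ckap5-001, Usp34-201, Reln-001 and Prrc2c-005. Birc6-007 had 31 and 191 footprints and a log2 ratio of 0.92 (exact binomial test, adjusted p = 0.00912). Ckap5-001, a microtubule polymerase, had 50 and 284 footprints and a log2 ratio of 0.81. Usp34-201, a deubiquitinase of 10749 coding nucleotides, had 65 and 349 at 0.74. Reln-001 had 150 and 747 footprints at 0.63 (exact binomial test, adjusted p = 1.72e-05). Prrc2c-005 had 58 and 284 at 0.60.

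The lowest ratios were those of Bsn-001, Map1b-201, Notch3-001, Armcx4-001 and Zfhx3-001. Bsn-001 had 229 and 436 footprints and a log2 ratio of -0.75 (exact binomial test, adjusted p = 5.43e-08). For Map1b-201 the log2 ratio was -0.73 (exact binomial test, adjusted p = 3.91e-116). Notch3-001 had 126 and 248 footprints at -0.70, Armcx4-001, an armadillo repeat protein, 151 and 299 at -0.69, and Zfhx3-001, a transcription factor, 107 and 213 at -0.68. Of all called members, 2 differed by at least 2-fold, both with few footprints in replicate 1 and both named after their values were seen. Cep192-201, of a centrosome protein, had 5 and 59 footprints, and Jmjd1c-009, of a histone demethylase family member, 15 and 105.

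Among the lists, called transcripts are given beside the background of 0.662% higher and 5.48% lower in replicate 2 over all transcripts tested. Calls that were higher in replicate 2 numbered 3 of 35 tested transcripts in the matrix list, 3 of 26 in the ubiquitin list, 2 of 40 in the cytoskeletal linkers and 2 of 14 in the mitosis list. Calls that were lower numbered 2 of 4 in the lipoprotein receptors, 2 of 8 in the lipid list, 2 of 9 in the synaptic scaffolds and 2 of 11 in the notch list. Of the other lists, cytoskeletal linkers included, 6 had 1 lower call each, that of the chromatin regulators being Zfhx3-001 of 54 tested. With so few tested transcripts a list, nothing is read from these counts. Counts summed per gene gave calls also where no very long transcript of the gene was called, as for Pclo and Sptan1. Pclo had 253 and 1182 footprints over all its transcripts at a log2 ratio of 0.60, and Sptan1 had 1990 and 6788 at 0.15, or 0.28 with library totals. For Macf1, Apc and Vcan 1 very long transcript each was called as well. Macf1 had 655 and 2705 footprints over all its transcripts and a log2 ratio of 0.42 (exact binomial test, adjusted p = 1.94e-10). Apc had 771 and 3030 at 0.35 and Vcan 325 and 1454 at 0.54, both called in the same setting.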

How the data were processed

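Brain polysome footprints of 25 to 35 nucleotides, per the labels' protocols, were counted per transcript by the authors, who deposited 1 table of raw counts with 1 column per replicate and annotated lengths. The submitters' processing notes name Trimmomatic 0.36, Bowtie2 2.2.6, SAMtools and build GRCm38.p4; the counting rule, the use of strand and the treatment of duplicates and of fragments matching several transcripts are not given in the sources used here. Counts of near-identical or overlapping genes are therefore uncertain. Symbols came from the transcript names; 425 of 439 were also symbols of a RefSeq table of GRCm38.p6, whose coordinates were not used.

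Levels, medians and ratios were computed in Python 3.11.15, with exact binomial tests and Clopper-Pearson intervals from SciPy 1.17.1. TMM factors and the exact test with a common dispersion came from edgeR 4.0.16, and size factors from DESeq2 1.42.0. A quasi-likelihood test needs a contrast, which 1 group lacks. Log2 ratios used a prior of 0.5 CPM. Library totals of 1866831 and 5261878 set the precision; reads copied by PCR do not count separate molecules, and every interval, floor and p-value covers the error of counting alone, between libraries the labels call biological replicates. The binomial test was checked on simulated counts that held counting noise alone. That check says nothing of its calls where libraries differ by more than counting noise.

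The members and the 19 functional lists were chosen with earlier results of these data known. Genes were named by rule: the 10 highest by level and by count, the 5 longest, the 5 highest and lowest called ratios at a mean count of at least 100, and of each list the 2 highest and the lowest by transcript level. Some genes that the rule picks are not reported here. Further list members were named after their values were seen.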

Additional observations from a re-analysis of the deposited data

How the results depend on the processing

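The log2 difference of the median levels, -1.18 as reported, stayed below 0 in each alternative, but each setting listed here shifted it further than its small replicate SD. It was -0.51 per nucleotide of the whole transcript, -0.998 with counts summed per gene, -1.11 with the highest transcript per gene and -1.27 for genes with 1 protein-coding transcript. With a mean count of at least 10 it was -1.94, with at least 1 it was -1.62, and as summed counts over summed length -1.97. A minimum count asks a higher level of a shorter coding sequence, so both count filters widen the difference by design. At 10, 78.4% of members and 62.7% of the reference class passed. Very long from 8000 nucleotides gave -1.81 and from 5000 nucleotides -1.02, and a reference of 2000 to 4000 nucleotides gave -0.9997. Among alternatives chosen after the data were seen, transcripts with both untranslated regions annotated gave -1.20 and leaving out muscle genes, axonemal dyneins and Apob gave -1.01. The share of coding footprints, 3.36%, was 1.19% from 8000 nucleotides, 5.29% from 5000 nucleotides and 2.53% of all deposited footprints; leaving out Map1b gave 3.15%. Called members numbered 39 of 647 (background 6.15%), and with counts summed per gene 82 of 361 genes (background 17.4%). With edgeR's exact test, whose dispersion comes from the same 2 libraries, 0 of 647 were called (background 0.0183%). At a mean count of at least 50 it was 54 of 418, with no filter 31 of 783 and with DESeq2 size factors 39 of 647. The share over all transcripts is not given for these last settings, so nothing is read from their counts. The median log2 ratio, 0.11, was 0.29 with library totals and 0.041 at a mean count of at least 50. With 1 replicate alone the level difference was -1.175 or -1.176 and the share 3.17% or 3.55%, which with n = 2 says nothing of stability. No paired analysis was possible because the replicates form a single group with no second group to pair. Depth limits members with few footprints: in replicate 1, 3 counts on 6000 nucleotides are a level of 0.268.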

Other observations

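The genes of very long transcripts kept most of their footprints on transcripts annotated as coding. Over the 439 genes, protein-coding transcripts held 89.5% of all their footprints in replicate 1 and 88.6% in replicate 2, against 79.8% and 78.0% for the genes of the reference class. Retained introns held 6.84% and 7.36%, against 10.3% and 11.0%, and targets of nonsense-mediated decay 1.56% and 1.88%, against 4.15% and 4.77%. These shares are not scaled by transcript length. The median very long transcript had 8988 nucleotides and the median reference transcript 2382, and the part of length in the shares was not tested. The retained-intron transcript with the most footprints was Agrn-008, with 175 and 493. Pclo-003, annotated with 17063 nucleotides, had 70 and 378. Of the footprints on coding transcripts of these genes, 84.8% and 83.9% lay on very long ones.

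Aspm, whose protein keeps the spindle of neural progenitors in place, was uneven between the replicates. Aspm-001 had 3 footprints in replicate 1 and 44 in replicate 2, and all transcripts of the gene together had 4 and 91. In the exact binomial test the transcript had an adjusted p of 0.0501 and the gene one of 3.70e-06. It was singled out after its values were seen. Mki67-201, another gene of dividing cells, had 49 and 195 footprints and was not called. In the mitosis list, Cep192 with 5 and 59 footprints, Cenpf with 24 and 139, and Apc were by gene also called higher in replicate 2. Cenpe, Pcnt, Cep290, Cep350 and Cit were not called by gene. Among all genes tested 5.95% were called higher, and among tested genes with a very long transcript 15.79%. Aspm and Cep192 had few footprints in replicate 1, and nothing is read from the number of calls in this list.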
